A study of Mus musculus with 8 samples.

Results

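Ppp1r17, the gene targeted by the knockdown, was followed together with the phosphatases and kinases that surround its product in the cell. The set is defined by known function, and no measured value enters the rule, though it was chosen with earlier results of these data known. It holds Ppp1r17 itself, the catalytic subunits of protein phosphatase 1 (Ppp1ca, Ppp1cb, Ppp1cc), the catalytic (Ppp2ca, Ppp2cb) and scaffold (Ppp2r1a, Ppp2r1b) subunits of protein phosphatase 2A, and the cGMP-dependent protein kinases Prkg1 and Prkg2. These are 10 of the 55487 mouse genes in the tables, each found under a single Ensembl identifier, and all 10 were among the 17339 genes that passed the filter on low counts.

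RNA was sequenced from mouse dorsomedial hypothalamus (DMH), which takes part in the control of feeding, wakefulness and daily rhythm. The 4 libraries of the control group, shfLuc, carry a short hairpin RNA against firefly luciferase, and the 4 of the group shPpp1r17 carry a hairpin against Ppp1r17. The titles mark the tissue with LMD, a common short form for laser microdissection. The strain, age and sex of the mice, the way the hairpins were delivered and the cell type they act in were not given in the sources used here. Nothing there says whether each library came from its own animal, so a p-value measures only how far these libraries spread, and part of that spread may be technical.

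Protein phosphatases 1 and 2A (PP1 and PP2A) remove phosphate from serine and threonine in many cell proteins. The product of Ppp1r17, also called G-substrate, was first known from cerebellar Purkinje cells as a protein phosphorylated by cGMP-dependent kinase, and in its phosphorylated form it inhibits both phosphatases. In the hypothalamus its gene marks a group of DMH neurons. PP1 acts as a catalytic subunit bound to one of many regulatory partners, while PP2A is built on a scaffold subunit that holds the catalytic subunit and an exchangeable regulatory subunit. Prkg1 encodes the soluble type I kinase of neurons and smooth muscle, and Prkg2 the membrane-bound type II kinase.

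Library totals ran from 23070147 to 33907984 estimated reads. The shPpp1r17 libraries 2 and 3 lay at one end of the first principal component, which held 32.3% of the variance, with 3 shfLuc libraries at the other. Library 4 of shPpp1r17, with the highest total, stood apart on the second component (53.7, against -16.3 to 6.21 in the others). DMH and tuberal markers were present, among them Npvf at 43.8 to 98.8 CPM (the usual scale of reads relative to library size, here with TMM factors) and Gpr50 at 42.1 to 63.6 CPM. Of 8 markers of neighbouring nuclei, the orexin gene Hcrt of the lateral hypothalamus stood at 170 to 418 CPM and Pmch at 675 to 1566 CPM. Pomc, Fezf1, Oxt, Nr5a1, Agrp and Avp stood at 12.2 CPM or below in every library. The 8 summed to 1137 to 2006 CPM in shfLuc and 886 to 1319 CPM in shPpp1r17, with overlap. Summed over 9 neuronal markers, the libraries held 4528 to 4610 CPM in shfLuc and 4479 to 4945 CPM in shPpp1r17, with overlap, while of these 9 Tubb3 was called higher in edgeR (log2 fold change 0.38) and Syt1 (-0.37), Eno2 (-0.43) and Nefl (-0.39) lower. Of the astrocyte markers, Gfap was called higher (1.82), at 341 and 246 CPM in the shPpp1r17 libraries 2 and 3 against 40.7 to 120 CPM in the others, and Slc1a3 lower (-0.46). The shPpp1r17 libraries 2 and 3 had the highest sums of 6 oligodendrocyte markers (1951 and 2072 CPM, against 1103 to 1230 CPM in the other 6 libraries) and of 7 microglial markers (386 and 392 CPM, against 191 to 306 CPM). Of these markers Mobp, Cldn11, C1qa and C1qb were called higher and the rest were not called. C1qb alone stood at 179 and 177 CPM, against 55.3 to 125 CPM. Of all genes tested, 6.06% were called. Libraries 2 and 3 of shPpp1r17 had the lowest sums of 8 DMH and tuberal markers (129 and 136 CPM, against 172 to 243 CPM), of which 0 were called. Brs3 stood at 7.26 and 8.47 CPM in them, against 29.4 to 51.1 CPM in the others. Grp stood at 14.1 and 13.3 CPM, against 26.0 to 30.5 CPM. Gpr50 (47.9 and 48.2 CPM) and Npvf (44.2 and 51.2 CPM) lay within the range of the others. No marker of the oligodendrocyte, microglial or DMH and tuberal lists was at 0 in any library. The part of this makeup in the results on libraries 2 and 3 was not tested. In whole tissue, fewer cells of a type and less RNA per cell cannot be told apart.

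Ppp1r17 was lower in every library with its hairpin, to 2 very different depths. It stood at 147 to 171 CPM over the shfLuc libraries, and at 87.7, 2.07, 3.10 and 87.2 CPM over the shPpp1r17 libraries 1, 2, 3 and 4. The groups did not overlap, and within shPpp1r17 the libraries 2 and 3 stood far below 1 and 4. The 53 reads of library 2 and the 85 of library 3 allowed 1.55 to 2.71 CPM and 2.48 to 3.84 CPM (exact 95% Poisson intervals, which cover counting error only), against 84.2 to 91.5 CPM in library 1. The transcript was thus still counted in the 2 lowest libraries, at 1.29% and 1.94% of the shfLuc mean. The exact two-sided permutation test of log2 CPM gave p = 0.0286, the smallest that 4 against 4 libraries can give. In edgeR, where the unequal depth of the knockdown enters the variance, the log2 fold change was -1.83 (SE 0.80, 95% interval -3.56 to -0.10) with an adjusted p of 0.197, and limma voom gave -3.31 with an adjusted p of 0.0368.

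In GRCm38 the gene runs from 56017497 to 56032689 of chromosome 6 (plus strand), and GENCODE M21 gives it a single mRNA of 1757 bases, the length that the deposited tables give it in all 8 libraries. The 7-base word CTCTGAT is shown in it because, among 16384 words searched in 3' UTRs, it had the lowest standardised difference in mean fold change between genes with and without it. The mean log2 fold change was -0.11 over the 1843 genes whose 3' UTR held the word and 0.05 over the rest of the 14261 genes searched. The word was picked from the fold changes themselves, so these means are a description and no support for it. The means were also not matched on 3' UTR length. The word was in 1.54% of UTRs within 25% of 247 bases and in 38.9% of those within 25% of 5804 bases. The word, written 5′ to 3′ in capitals with 8 bases on each side and searched on the mRNA strand alone, occurred at these places in the Ppp1r17 mRNA:

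Ppp1r17 coding sequence, exon 4, chr6:56026533-56026539: cttcataaCTCTGATatggaaca
Ppp1r17 3' UTR, exon 5, chr6:56032063-56032069: gagtccaaCTCTGATcatcctct
Ppp1r17 3' UTR, exon 5, chr6:56032367-56032373: tatttagaCTCTGATacgttttc

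Of the other 9 genes, 2 held the word in the 3' UTR and Prkg2 held it in its coding sequence, all on GRCm38:

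Ppp1cc 3' UTR, exon 7, plus strand, chr5:122174360-122174366: gtggacagCTCTGATgatggtgt
Prkg1 3' UTR, exon 18, minus strand, chr19:30568941-30568947: ttgctttgCTCTGATtatatttt
Prkg2 coding sequence, exon 8, minus strand, chr5:98979769-98979775: agaaaaggCTCTGATcagtgatg

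In all, 3 of the 10 genes held the word in the 3' UTR, against 12.9% of the 14261 genes searched. Among 3' UTRs within 25% of the same length, 9.02% held it for a UTR as long as that of Ppp1cc (1129 bases) and 33.5% for one as long as that of Prkg1 (4749 bases). For one as long as that of Ppp1r17 (1133 bases), 9.12% held it. A match is a run of letters and shows neither binding nor a cause. Ppp1cc and Prkg1, with 1 match each in the 3' UTR, stood at log2 fold changes of 0.30 and -0.21, on either side of 0.

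A single gene of the set passed the test across all genes: Ppp2r1b, the minor scaffold subunit of PP2A, rose 1.5-fold. It was 1 of the 10 genes called at an adjusted p of 0.05 in edgeR, against 6.06% of all genes tested (3.39% called higher and 2.66% called lower). Without an adjustment 6 of the 10 had a p under 0.05, against 22.6% of all genes. In CPM, 5 of the 10 lay higher in all shPpp1r17 libraries than in any shfLuc library, against 7.14% of all genes, and 1, Ppp1r17, lay lower in all, against 6.71%. The 5 were Ppp1cc, Ppp2ca, Ppp2cb, Ppp2r1a and Ppp2r1b, so all 4 PP2A genes were among them, though only Ppp2r1b passed the test. On the deposited TPM scale none of the 5 stood apart. There 0 of the 10 lay higher in all shPpp1r17 libraries, against 4.33% of all genes. The 3 that lay lower in all were Ppp1r17, Ppp1cb and Prkg2, against 9.85% of all genes. TPM also relates reads to gene length, and Ppp2cb had the same length, 1469 bases, in every library. Its log2 fold change was 0.11 with effective lengths as offsets in edgeR and 0.03 on log2(TPM + 1). The cause of this difference between the scales was not tested. The median log2 fold change of the 9 genes without Ppp1r17 was 0.11, against 0.00427 over all genes tested.

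**Figure D1:**
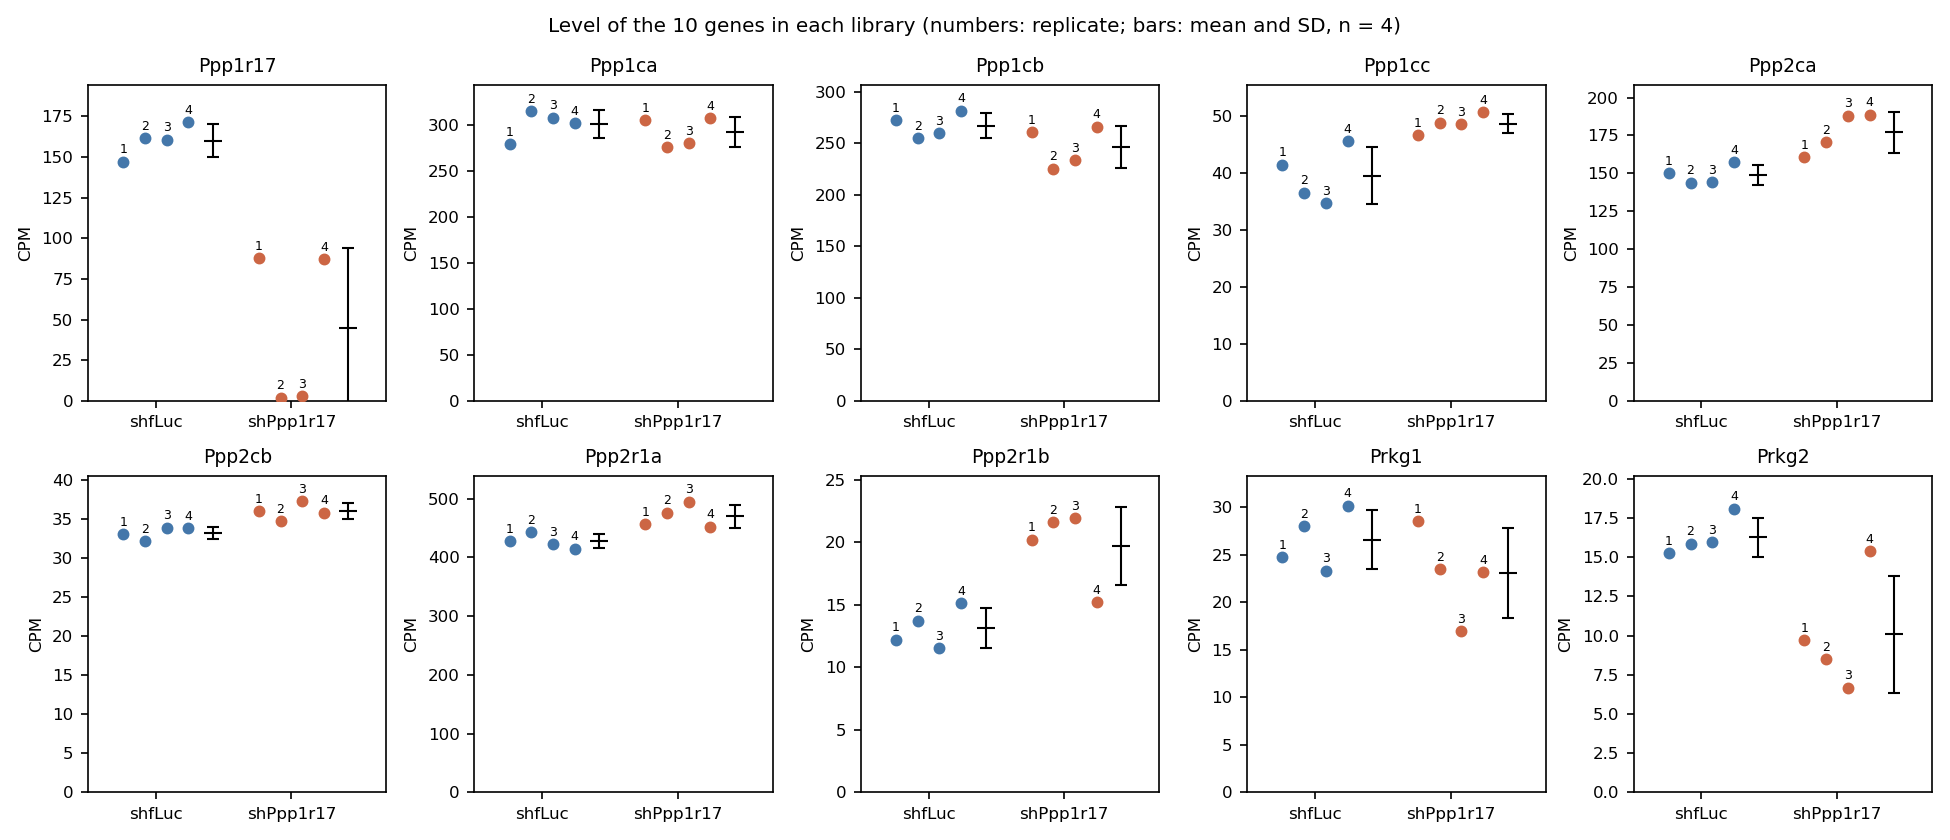
CPM (y axis, from 0) of the 10 genes in each library, with shfLuc in blue and shPpp1r17 in orange, the replicate number above each point, and the mean and SD of each group (n = 4) in black; the SD bar of Ppp1r17 in shPpp1r17 is clipped at 0. Ppp1r17 splits the shPpp1r17 libraries into 87.7 and 87.2 CPM against 2.07 and 3.10 CPM, and the 4 PP2A genes lie higher in shPpp1r17 without overlap, by small steps except for Ppp2r1b, a separation not seen in TPM.

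Levels of different genes were compared on the deposited TPM scale, which relates reads to gene length and then to the library. In shfLuc the highest were the scaffold Ppp2r1a at 356 ± 8.86 TPM and the PP1 subunit Ppp1ca at 345 ± 26.6 TPM (SD, n = 4), whose ranges overlapped. Ppp1cb followed at 188 ± 3.24 TPM and Ppp1r17 at 132 ± 9.73 TPM, each apart from its neighbours. Ppp1r17 thus ranked above 93.0% of tested genes in shfLuc, close to the major phosphatase subunits. Ppp2cb stood at 40.6 ± 1.65 TPM, above Ppp2ca at 29.3 ± 0.91 TPM and Ppp1cc at 28.5 ± 3.48 TPM, and these last 2 overlapped. Prkg2 (6.52 ± 1.02 TPM), Ppp2r1b (5.97 ± 0.87 TPM) and Prkg1 (5.85 ± 0.68 TPM) formed the lowest step, with overlapping ranges.

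Set against its targets, the Ppp1r17 transcript stood at 19.8 to 21.9 TPM per 100 TPM of summed PP1 and PP2A catalytic subunits over the shfLuc libraries. Over shPpp1r17 1, 2, 3 and 4 it stood at 11.4, 0.289, 0.427 and 11.1 TPM per 100. The steps are those of the Ppp1r17 level itself, since the summed catalytic subunits varied little: PP1 summed to 529 to 576 TPM in shfLuc and 477 to 535 TPM in shPpp1r17, and PP2A to 68.0 to 71.6 TPM and 71.7 to 75.9 TPM. These are levels of transcripts, and the amounts of protein were not measured.

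The PP1 catalytic subunits gave no call. Ppp1ca (chromosome 19), the alpha isoform, stood at 280, 316, 308 and 303 CPM in shfLuc and 306, 277, 281 and 308 CPM in shPpp1r17 (libraries 1, 2, 3 and 4 in that order, as throughout), ranges that overlapped. Its log2 fold change was -0.04 (SE 0.07, adjusted p = 0.759 in edgeR), and the 95% interval ran from a 0.876-fold to a 1.07-fold level. Ppp1cb (chromosome 5), the beta isoform that joins the myosin phosphatase, stood at 272, 254, 260 and 281 CPM in shfLuc and 261, 225, 233 and 266 CPM in shPpp1r17. The shPpp1r17 libraries 2 and 3 lay below all shfLuc libraries and 1 and 4 within their range. The log2 fold change was -0.12 (SE 0.07, adjusted p = 0.391 in edgeR), with an interval of 0.827-fold to 1.03-fold, and it was -0.02 without the shPpp1r17 libraries 2 and 3. In TPM the groups did not overlap for Ppp1cb, at 185 to 192 TPM in shfLuc and 151 to 175 TPM in shPpp1r17. Of all genes tested, 9.85% lay lower in TPM without overlap. The log2 fold change of Ppp1cb was -0.22 on log2(TPM + 1) (adjusted p = 0.0700 in limma). With effective lengths as offsets it was -0.14 (adjusted p = 0.272 in edgeR). The mean length of Ppp1cb was 2119 bases in shfLuc and 2141 in shPpp1r17.

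Ppp1cc (chromosome 5), the gamma isoform and the scarcest of the 3, stood at 41.5, 36.6, 34.7 and 45.6 CPM in shfLuc and at 46.7, 48.9, 48.7 and 50.7 CPM in shPpp1r17. Every shPpp1r17 library lay above every shfLuc library, and shPpp1r17 spread less (SD 1.61 against 4.92 CPM). In TPM the groups overlapped, at 25.3 to 32.9 TPM in shfLuc and 31.5 to 38.6 TPM in shPpp1r17. The log2 fold change was 0.30 (SE 0.09, interval 1.07-fold to 1.41-fold) with an adjusted p of 0.0733 in edgeR, so it did not pass. It passed in DESeq2 (adjusted p = 0.0385) and in limma voom with sample quality weights (0.0445). As a share of summed PP1 catalytic TPM, Ppp1cc made up 5.10% ± 0.72 in shfLuc and 6.82% ± 0.70 in shPpp1r17 (SD, n = 4), without overlap (4.42% to 5.80% against 6.39% to 7.87%). Ppp1ca made up 61.3% ± 2.47 and 61.5% ± 0.64, and Ppp1cb 33.6% ± 1.93 and 31.7% ± 0.67.

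PP1 isoforms are paralogs, and this bears on how far their reads can be told apart. The aligned coding sequences of Ppp1ca and Ppp1cc were 76.9% identical, and their longest identical stretch, shown because reads within it fit both genes, was 44 bases in the coding sequence of each:

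Shared by Ppp1ca and Ppp1cc: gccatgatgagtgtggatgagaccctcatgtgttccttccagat

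Coding sequences of Ppp2ca and Ppp2cb were 82.0% identical with a longest identical stretch of 25 bases, and no other pair of paralogs in the set shared more than 23. Deposited read numbers were fractional in 8 libraries for Ppp1ca, Ppp1cc and Ppp2r1b and in 5 for Ppp1cb. The other 6 genes had whole numbers in every library, within 1e-06 of a read. Read length and the handling of shared reads were not given in the sources used here, and pseudogene copies were not examined.

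In PP2A, the catalytic subunits lay slightly higher in shPpp1r17 and neither passed the test. Ppp2ca (chromosome 11), the alpha catalytic subunit, stood at 150, 144, 144 and 157 CPM in shfLuc and 161, 171, 188 and 189 CPM in shPpp1r17. The groups did not overlap, and libraries 3 and 4 of shPpp1r17 were highest. In TPM they overlapped, at 28.7 to 30.6 TPM in shfLuc and 29.8 to 34.1 TPM in shPpp1r17. The log2 fold change was 0.25 (SE 0.07, interval 1.06-fold to 1.33-fold) with an adjusted p of 0.0647 in edgeR. It passed in DESeq2 (0.0208), in limma voom with sample quality weights (0.0331) and in edgeR without shPpp1r17 1 (0.0303), but was 0.14 on log2(TPM + 1) (adjusted p = 0.294 in limma). Ppp2cb (chromosome 8), the beta catalytic subunit, stood at 33.1, 32.2, 33.9 and 33.8 CPM in shfLuc and 36.1, 34.8, 37.3 and 35.9 CPM in shPpp1r17. These groups also stood apart, with a log2 fold change of 0.11 (SE 0.07, adjusted p = 0.392 in edgeR) and an interval of 0.970-fold to 1.21-fold. On the TPM scale it was 40.6 ± 1.65 and 41.4 ± 0.75 TPM (SD, n = 4), with overlap.

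The scaffold subunits stood at very different levels, and the scarcer one, Ppp2r1b, passed the test; whether their fold changes differ from each other was not tested. Ppp2r1a (chromosome 17), the A alpha scaffold, made up 98.4% ± 0.21 of summed scaffold TPM in shfLuc and 97.9% ± 0.42 in shPpp1r17 (SD, n = 4). It stood at 428, 443, 423 and 415 CPM in shfLuc and 456, 476, 495 and 452 CPM in shPpp1r17, without overlap. Its log2 fold change was 0.14 (SE 0.06, interval 0.01 to 0.27), with an adjusted p of 0.199 in edgeR. In TPM the groups overlapped, at 343 to 364 TPM in shfLuc and 341 to 405 TPM in shPpp1r17, with 0.08 on log2(TPM + 1) (adjusted p = 0.501 in limma). Ppp2r1b (chromosome 9, plus strand, 50845301 to 50894229 in GRCm38), the A beta scaffold, stood at 12.2, 13.8, 11.5 and 15.1 CPM in shfLuc and 20.2, 21.6, 21.9 and 15.2 CPM in shPpp1r17. Libraries 1, 2 and 3 of shPpp1r17 stood well above shfLuc, while library 4 lay just above the highest shfLuc library (15.21 against 15.12 CPM). The oligodendrocyte markers summed to 1230, 1951, 2072 and 1132 CPM and the microglial markers to 306, 386, 392 and 257 CPM in the same 4 libraries, and their part in the Ppp2r1b level was not tested. The log2 fold change was 0.58 (SE 0.14, interval 1.22-fold to 1.84-fold) with an adjusted p of 0.0291 in edgeR. The call was lost, among other settings, with the deposited effective lengths as offsets (0.51, adjusted p = 0.0856 in edgeR), on log2(TPM + 1) (0.36, adjusted p = 0.179 in limma), without the shPpp1r17 libraries 2 and 3 (0.42, adjusted p = 0.299) and in edgeR without any 1 of 6 libraries, namely shfLuc 1 (0.0576), 2 (0.0795), 3 (0.0988) or 4 (0.0531) and shPpp1r17 2 (0.0881) or 3 (0.100). Without shfLuc 2 or shfLuc 3 edgeR called 0 of all genes, so no gene could keep its call there. It called 1031, 287, 310 and 196 genes without shfLuc 1, shfLuc 4, shPpp1r17 2 and shPpp1r17 3, against 1050 on all libraries. The log2 fold change of Ppp2r1b ran from 0.52 to 0.69 with single libraries left out. Per length its groups overlapped, at 5.05 to 6.99 TPM in shfLuc and 5.94 to 9.14 TPM in shPpp1r17, and the mean length that the tables give this gene ran from 2972 to 3227 bases in shfLuc and from 3017 to 3436 in shPpp1r17.

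**Figure D2:**
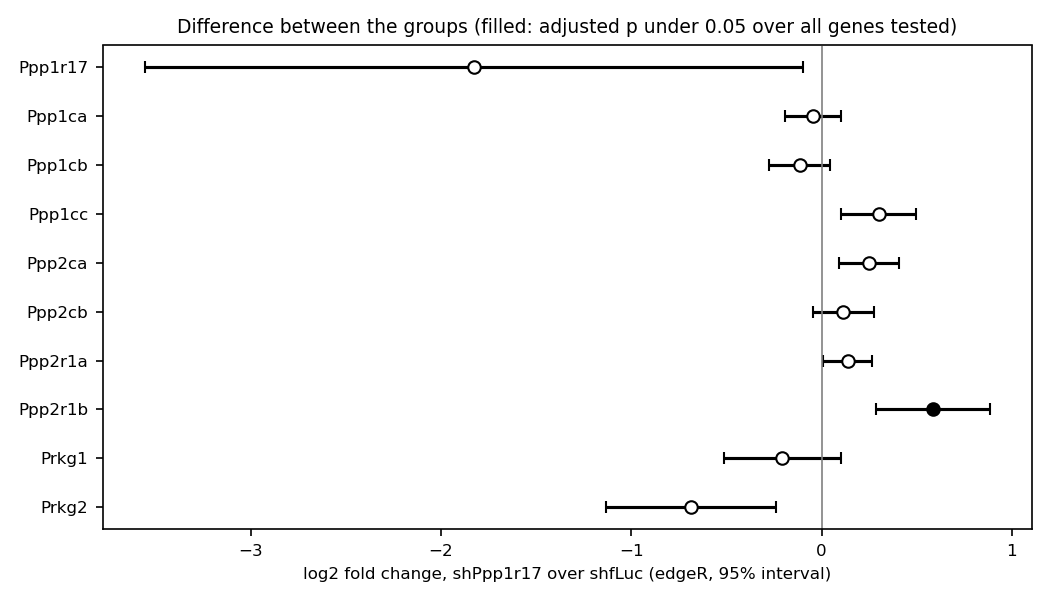
Fitted log2 fold change of shPpp1r17 over shfLuc (x axis) for each of the 10 genes, with 95% intervals from edgeR; a filled point marks an adjusted p under 0.05 over all genes tested. Ppp2r1b (0.58) is the filled point, and the interval of Ppp1r17 is the widest, from -3.56 to -0.10.

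Of the cGMP-dependent kinases, Prkg2 stood lower in 3 of the 4 shPpp1r17 libraries and Prkg1 did not separate the groups. Prkg2 (chromosome 5, minus strand, 98929773 to 99037351 in GRCm38) stood at 15.3, 15.9, 15.9 and 18.1 CPM in shfLuc and at 9.73, 8.51, 6.68 and 15.4 CPM in shPpp1r17. Library 4 of shPpp1r17 lay inside the shfLuc range and the other 3 below it. The shPpp1r17 libraries 1 and 4, with 87.7 and 87.2 CPM of Ppp1r17, had 9.73 and 15.4 CPM of Prkg2. The log2 fold change was -0.69 (SE 0.21, interval 0.456-fold to 0.846-fold) with an adjusted p of 0.0678 in edgeR, so Prkg2 did not pass, although its fitted change was larger in size than the 0.58 of Ppp2r1b. It passed, among other settings, with effective lengths as offsets (-0.69, adjusted p = 0.0328 in edgeR), on log2(TPM + 1) (-0.65, adjusted p = 0.0436 in limma), in DESeq2 (0.0149), in limma voom with sample quality weights (0.0121), without a filter (0.0225) and in edgeR without shPpp1r17 4 (-0.97, adjusted p = 0.00498). Without the shPpp1r17 libraries 2 and 3 it was -0.37 (adjusted p = 0.42 in edgeR).

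Per length the Prkg2 groups did not overlap: 5.55, 6.64, 7.89 and 5.99 TPM in shfLuc and 4.46, 3.80, 2.72 and 4.23 TPM in shPpp1r17. Library 4, which lay among the shfLuc libraries in CPM, lay with the other shPpp1r17 libraries in TPM. The tables give Prkg2 a mean length that moves with the mix of its transcripts, which GENCODE M21 lists from 387 to 4968 bases: it was 3931, 3560, 3065 and 4352 bases in shfLuc and 3059, 3134, 3347 and 4957 bases in shPpp1r17. Library 4 thus had the greatest length of the 8, near that of the longest transcript. These values rest on 183 to 523 reads per library.

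Prkg1 (chromosome 19, minus strand) stood at 24.8, 28.0, 23.3 and 30.2 CPM in shfLuc and 28.6, 23.5, 17.0 and 23.2 CPM in shPpp1r17, with overlap. Library 3 of shPpp1r17 was the lowest of the 8. The log2 fold change was -0.21 (SE 0.14, adjusted p = 0.429 in edgeR), with an interval of 0.700-fold to 1.07-fold, and it was -0.09 without shPpp1r17 3 and -0.04 without shPpp1r17 2 and 3. Prkg1 is also a gene of smooth muscle and pericytes, whose 8 markers summed to 90.9 to 107 CPM in shfLuc and 92.9 to 146 CPM in shPpp1r17, with 0 of 8 called and none at 0, and their part in the Prkg1 level was not tested. Of the summed kinase TPM, Prkg1 made up 48.6%, 48.4%, 40.3% and 52.5% in shfLuc and 57.5%, 57.2%, 60.2% and 53.3% in shPpp1r17. The shares did not overlap, with shfLuc 4 and shPpp1r17 4 next to each other. Both kinases together came to 10.8 to 13.2 TPM in shfLuc and 6.83 to 10.5 TPM in shPpp1r17.

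**Figure D3:**
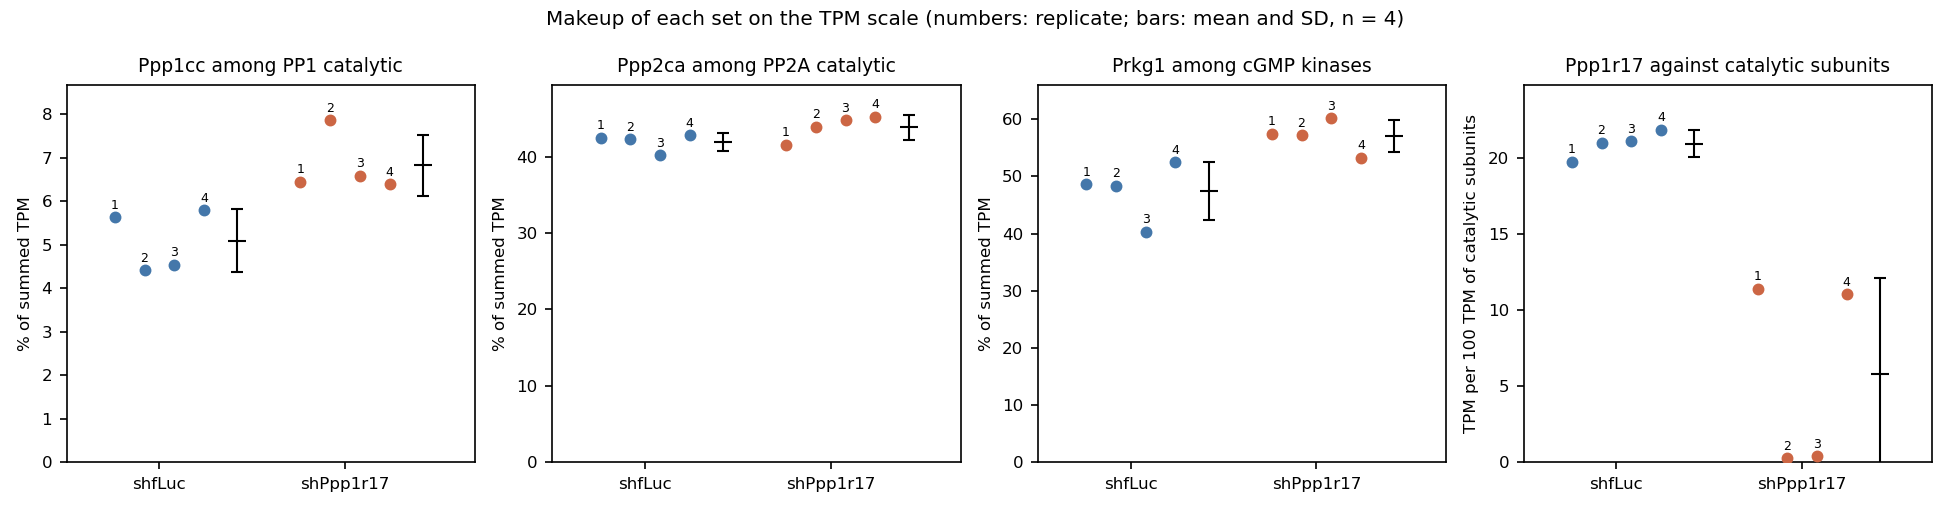
Share of summed TPM for Ppp1cc, Ppp2ca and Prkg1 within their sets, and Ppp1r17 TPM per 100 TPM of PP1 and PP2A catalytic subunits (y axes, from 0), per library, with replicate numbers above the points and the mean and SD of each group (n = 4) in black. Shares of Ppp1cc and Prkg1 are higher in all shPpp1r17 libraries, shares of Ppp2ca overlap between the groups (40.1% to 42.8% and 41.5% to 45.2%), and the Ppp1r17 ratio follows the 2 depths of the knockdown.

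Over 19 other settings the 9 genes kept their direction, except Ppp1ca, which was 0.02 without the shPpp1r17 libraries 2 and 3. Ppp2r1b was called in 9 of the 19 settings, Prkg2 in 7, Ppp2ca in 3 and Ppp1cc in 2, and Ppp1ca, Ppp1cb, Ppp2cb, Ppp2r1a and Prkg1 in 0. DESeq2 called 4 of the 10 (Ppp1cc, Ppp2ca, Ppp2r1b and Prkg2) and 11.0% of all genes. Limma voom called Ppp1r17 and Ppp2r1b and 5.78% of all genes, and with sample quality weights Prkg2, Ppp1cc and Ppp2ca besides and 10.2%. Prkg2 was the single gene of the 10 called on log2(TPM + 1) (4.60% of all genes) and with effective length offsets (5.06%). Ppp2r1b and Prkg2 were called together without a filter (4.79%) and without shPpp1r17 4 (8.73%), and Ppp1r17 alone without shPpp1r17 2 and 3 (0.205%).

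**Figure D4:**
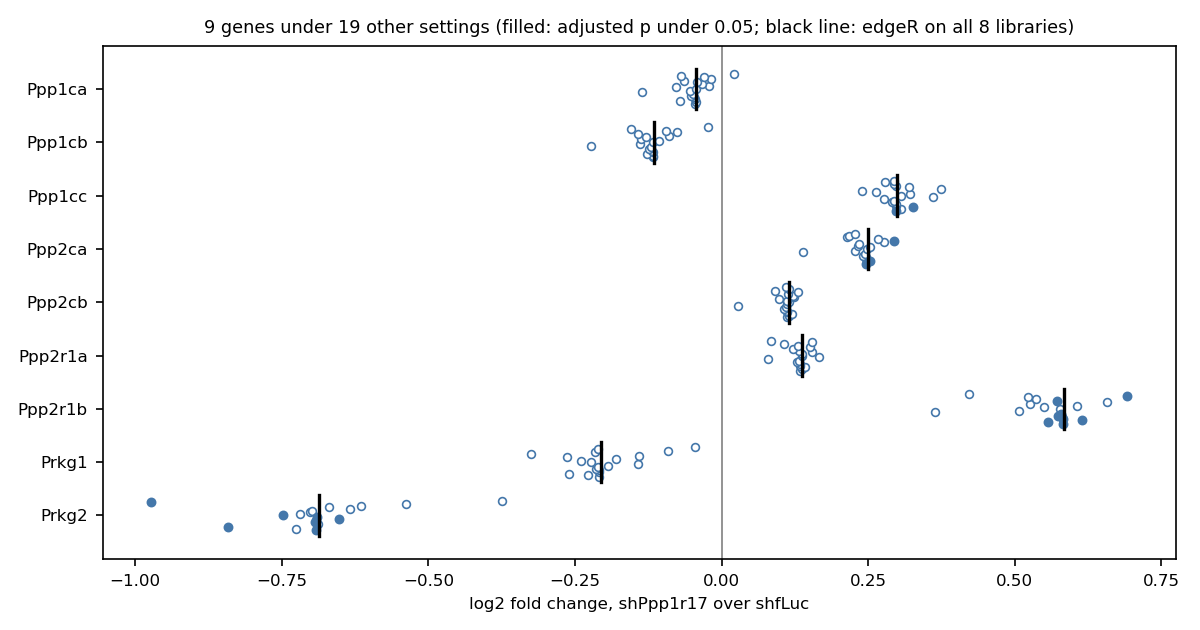
Log2 fold change of the 9 genes other than Ppp1r17 (x axis) under 19 other settings (circles, filled where the adjusted p was under 0.05), with edgeR on all 8 libraries as a black line. Prkg2 ranges from -0.97 to -0.37 and Ppp2r1b from 0.36 to 0.69, and both hold filled and open circles.

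The genes whose pattern was most like that of Ppp1r17 were taken by the Pearson correlation of log2 CPM over the 8 libraries, among 9713 other genes with a mean log2 CPM of at least 3. The 5 highest were Arpc4, a subunit of the actin-nucleating Arp2/3 complex (r = 0.996), Brs3, an orphan receptor of the bombesin family (0.994), Cystm1 (0.992), the dynactin subunit Dctn6 (0.992) and Tpd52l1 (0.991). The Ppp1r17 level has 3 steps, with 2 libraries far below the rest, and both genes of a pair are read from the same 8 libraries, so depth and tissue makeup are shared. Brs3 stood at 39.3, 43.2, 51.1 and 46.1 CPM in shfLuc and 34.1, 7.26, 8.47 and 29.4 CPM in shPpp1r17, the same 3 steps in smaller size. Arpc4 stood at 158 to 166 CPM in shfLuc, and at 155, 89.7, 97.3 and 148 CPM in shPpp1r17. None of the 5 was called (log2 fold changes from -1.18 to -0.28, adjusted p = 0.0701 at the lowest in edgeR). Brs3 and Tpd52l1 held CTCTGAT once in the 3' UTR and the other 3 did not, against 12.9% of all genes searched. The word was picked for low fold changes and these genes for a pattern that is low in shPpp1r17, so nothing is read from that count.

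Around the set, 6 lists covered other genes of the same pathways, 79 in all, of which 68 were tested, 2 rose, 1 fell and 65 did not pass (edgeR, adjusted p of 0.05). Of all genes tested, 3.39% were called higher and 2.66% lower, so the shares in the lists together were not above those of all genes. Their median log2 fold change was -0.00445, near that of all genes tested. None of the other 8 catalytic subunits of the same phosphatase family passed (median 0.08), nor did any of 13 tested inhibitors of PP1 and PP2A (median -0.09). Set, an inhibitor of PP2A and the one with the smallest p, stood at 1205 ± 209 CPM in shfLuc and 1034 ± 72.7 CPM in shPpp1r17 (SD, n = 4; log2 fold change -0.22, adjusted p = 0.243), and Ppef2, a sensory phosphatase, at 0.742 ± 0.119 and 1.42 ± 0.267 CPM from 14 to 60 reads (0.93, adjusted p = 0.130). Of 20 PP2A regulatory subunits and maturation factors 1 rose and 19 did not pass (median 0.08). It was Igbp1, the alpha4 protein that binds free PP2A catalytic subunit, at 29.4, 23.2, 26.2 and 27.4 CPM in shfLuc and 30.9, 39.3, 38.2 and 35.8 CPM in shPpp1r17 (0.44, SE 0.10, adjusted p = 0.0272). Its groups did not overlap, and the libraries 2 and 3 were highest.

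On the cGMP side, 1 of 10 tested genes of synthesis rose (median -0.02), where 3.39% of all genes tested were called higher. The gene was Nppa, which encodes atrial natriuretic peptide, a ligand of a membrane guanylyl cyclase. It stood at 0.691, 0.916, 0.598 and 2.09 CPM in shfLuc and 2.39, 4.07, 6.06 and 2.05 CPM in shPpp1r17, from 14 to 166 reads (log2 fold change 1.74, SE 0.45, adjusted p = 0.0377 in edgeR). Library 4 of shPpp1r17 overlapped with shfLuc 4. In the same list, and named after their values were seen, 2 subunits of soluble guanylyl cyclase lay lower in all shPpp1r17 libraries and did not pass. Of all genes tested, 6.71% lay lower in all. Gucy1a1, another subunit of this cyclase, overlapped, at 46.8 to 57.4 CPM in shfLuc and 40.8 to 55.3 CPM in shPpp1r17. Its log2 fold change was -0.16 (adjusted p = 0.384 in edgeR). Gucy1b1 stood at 88.5, 78.8, 73.2 and 77.9 CPM in shfLuc and 69.8, 38.4, 40.0 and 67.8 CPM in shPpp1r17 (-0.56, adjusted p = 0.0798 in edgeR), with libraries 2 and 3 lowest, and Gucy1a2 at 1.89 to 4.32 CPM and 0.986 to 1.59 CPM (-0.997, adjusted p = 0.0962). Of 10 tested cGMP-hydrolysing enzymes 0 passed (median -0.04, 0 of 10 called in edgeR), with Pde1c at 12 ± 2.77 and 9.16 ± 1.20 CPM (SD, n = 4; -0.39, adjusted p = 0.204). Of 7 known substrates of the cGMP kinases 1 fell and 6 did not pass (median -0.22, from -0.40 to -0.02), where 2.66% of all genes were called lower. The gene that fell was Itpr1, the type 1 IP3 receptor of the endoplasmic reticulum, at 73.5, 67.8, 71.1 and 71.2 CPM in shfLuc and 62.8, 48.4, 47.8 and 55.7 CPM in shPpp1r17 (-0.40, SE 0.09, adjusted p = 0.0266 in edgeR). Its groups did not overlap, and the libraries 2 and 3 were lowest. Itpr1 is also a gene of Purkinje cells. Calb1, a calcium-binding protein of Purkinje and other neurons, was also called lower, at 108 to 133 CPM in shfLuc and 89.6, 52.4, 67.5 and 96.1 CPM in shPpp1r17 (log2 fold change -0.61, adjusted p = 0.038 in edgeR). Car8 and Slc1a6, further markers of Purkinje cells, were not called, and the defining Purkinje marker Pcp2 was at 0 to 0.248 CPM. These 5 genes, with Itpr1 among them, summed to 206 to 243 CPM in shfLuc and 134 to 187 CPM in shPpp1r17, without overlap. The sum holds the Itpr1 level itself, so nothing on Itpr1 is read from it. Car8 and Slc1a6 stood at log2 fold changes of -0.04 and -0.02. The part of Purkinje cell genes in the Itpr1 level was not tested.

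Among other settings, Igbp1, Nppa and Itpr1 all lost their call without shfLuc 2 (adjusted p = 0.0935, 0.111 and 0.0700), without shfLuc 3 (0.0893, 0.120 and 0.0825), without shPpp1r17 2 (0.0831, 0.0979 and 0.0813), without shPpp1r17 3 (0.0990, 0.145 and 0.0944) and without shPpp1r17 2 and 3 together (0.282, 0.427 and 0.242). Igbp1 (0.0682) and Itpr1 (0.0729) also lost it without shfLuc 4, and Nppa without shfLuc 1 (0.0766) and in limma voom (0.0619). No gene was called in edgeR after removing shfLuc 2 or shfLuc 3, so those losses say nothing about these genes. Calls over all genes fell from 1050 to 287 (shfLuc 4 removed), 310 (shPpp1r17 2), 196 (shPpp1r17 3) and 37 (shPpp1r17 2 and 3). They were 1031 with shfLuc 1 removed and 1003 in limma voom. Log2 fold changes over single removals were 0.38 to 0.51 (Igbp1), 1.37 to 2.28 (Nppa) and -0.48 to -0.35 (Itpr1). With shPpp1r17 2 and 3 removed they were 0.33, 1.03 and -0.26.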

How the data were processed

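The authors deposited 1 table per library, which per the file headers holds estimated counts and TPM of each Ensembl gene with its lengths. Tools named in the submitters' processing notes are DRAGEN, bcl2fastq, limma and edgeR. Their versions and roles and the build were not given in the sources used here. GENCODE M21 (GRCm38) gave the deposited length for 99.5% of 34176 genes with a single transcript and was used for coordinates, 3' UTRs (longest per gene, at least 50 bases, for 82.2% of tested genes) and mRNA sequences, with symbols matched for 55141 of 55487 identifiers. A RefSeq synonym matched Irag1 to Mrvi1.

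Estimated counts deposited by the authors (up to 10.1% fractional in a library) were rounded and tested with edgeR 4.0.16 (R 4.3.3): quasi-likelihood test, TMM, minimum count 10, minimum total count 15, group as the single term, Benjamini-Hochberg adjustment over 17339 genes, threshold 0.05. The standard error is the log2 fold change over the root of F, and 95% intervals use the test's degrees of freedom. TPM values deposited by the authors were used for levels between genes, shares and limma 3.58.1 on log2(TPM + 1), with a pseudocount of 1. Depth ran from 23070147 to 33907984 reads, and reads amplified by PCR and not marked by molecular identifiers are not independent molecules. Library pairs of 1 group had a chi-square of 7.46 to 40.2 per degree of freedom, where counting noise gives 1. The fit and the word search were tested on simulated data. For the fit, each changed gene was given the same effect in every shPpp1r17 library, unlike Ppp1r17 in these data. Counts were drawn independently for each gene and library, so shifts shared by the genes of a library were not covered. For the word search, effects were planted on shuffled fold changes, so a link of fold change to UTR length was not covered.

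The genes and lists were chosen with earlier results of these data known. Genes named were the 10 of the set, the 5 most like Ppp1r17 (predicted genes left out), and from each list the called genes, at most 4, or else the gene with the smallest p. Other settings were no filter, at least 1 CPM in 4 libraries, library totals or RLE factors, effective length offsets, DESeq2 1.42.0, limma voom (also with sample quality weights), log2(TPM + 1), a replicate block, and leaving out each library. The fit without shPpp1r17 libraries 2 and 3 was chosen after seeing the data. One marker of the Purkinje cell list is not reported here, and sums leave it out.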

Additional observations from a re-analysis of the deposited data

Results flagged for a closer look

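Of 76 groups of 4 libraries checked, 2 held a library set apart from the other 3 by most of the group's range, where chance alone gives about 1 in 20 groups. Ppp2ca stood at 30.6 TPM in shfLuc 4, against 28.7 to 28.9 TPM in the other 3 shfLuc libraries. Ppp1cc made up 7.87% of summed PP1 catalytic TPM in shPpp1r17 2, against 6.39% to 6.59% in the other 3 shPpp1r17 libraries.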

How the results depend on the processing

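Ppp1r17 kept its direction in all 19 other settings and passed with limma voom (-3.31, adjusted p = 0.0368), with sample quality weights (-3.85, 0.00746) and without shPpp1r17 2 and 3 (-0.88, 0.00428 in edgeR). It ran from -2.37 to -1.43 with single libraries left out. Of the set, edgeR called 1 gene, against 4 in DESeq2, 2 in limma voom, 5 with sample quality weights, 2 without a filter and 0 to 2 with single libraries left out. A count of 1 did not always mean Ppp2r1b: it was Prkg2 on log2(TPM + 1), with effective length offsets and with the replicate block, and Ppp1r17 without shPpp1r17 2 and 3. Of all genes edgeR called 1050 (588 higher), against 1903 in DESeq2, 1763 with sample quality weights, 797 (309 higher) on log2(TPM + 1), 37 without shPpp1r17 2 and 3 and 0 to 1548 with single libraries left out. It called 0 without shfLuc 2 or shfLuc 3, where 3309 and 3146 genes had an unadjusted p under 0.05, and 287, 310 and 196 without shfLuc 4, shPpp1r17 2 and shPpp1r17 3. Of the 6 lists edgeR called 3 genes, against 6 in DESeq2 (Gucy1a2, Gucy1b1 and Kcnma1 besides), 5 with sample quality weights, 2 in limma voom, 2 with the replicate block, 0 without shPpp1r17 2 and 3 and 0 to 5 with single libraries left out. Without shPpp1r17 2 and 3, Ppp1ca was at 0.021 in place of -0.043. The difference in its share of PP1 catalytic TPM (0.18 percentage points) ran from -0.94 to 0.80 with single libraries left out, lower without shfLuc 1 and, at -0.09, without shPpp1r17 4. The cause of these shifts was not tested.

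Same-numbered libraries are not stated to share an animal or batch, and their deviations from the group means correlated at -0.01 to 0.12 with 2 of 4 numbers matching best, so the number was not taken as a pairing. With the replicate block edgeR called 726 genes, with Ppp1r17 at -3.01 (adjusted p = 0.0933), Ppp2r1b at 0.58 (0.0639), Prkg2 at -0.75 (0.0371), Igbp1 at 0.44 (0.0646) and Nppa at 1.75 (0.0718).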
